A study of Mus musculus with 18 samples.

Results

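The genes described here are those named for proteins of the mitochondrial ribosome, measured in single blastomeres of parthenogenetic 2-cell mouse embryos. They were taken by name: every gene whose symbol is Mrps or Mrpl followed by a number and at most a few letters, and whose probe set on the array carries that symbol alone. This gave 74 of the 30176 genes with a symbol of their own, 28 of them named for the small subunit (Mrps) and 46 for the large subunit (Mrpl), each with 1 probe set. The subunit is the one in the name, and for Mrps18a, Mrps30 and Mrps36 the protein is now placed elsewhere. Of the 74, 72 (97.3%) lay above background, against 12880 of all 30176 genes (42.7%). Another 4 symbols of this form, Mrpl30, Mrpl33, Mrpl53 and Mrps6, share a probe set with other symbols and were not analysed here.

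The blastomeres came from diploid embryos that began from the oocyte alone. Superovulated B6C3F1 females (a cross between C57BL/6 and C3H mice) gave the oocytes, which were activated with SrCl2 in Ca-free medium with Latrunculin and then kept in KSOM(aa). The embryos were bisected 1 day after activation, as 2-cell embryos, and both sisters were lysed at once, labelled with the number of their embryo and the letter a or b. The 18 blastomeres make 9 pairs, from the embryos numbered 1 to 5 and 7 to 10, and each was measured on 1 Affymetrix Mouse Transcriptome Array 1.0. All 18 shared the donor genotype, the activation and the medium, and the pair was the only grouping that the labels gave. Eggs of an F1 female carry different mixtures of the parental alleles, and this difference between embryos cannot be told apart from any other. There was no fertilized group, and the meaning of the letters a and b was not stated.

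The mitochondrial ribosome translates the mRNAs of the mitochondrial genome, all of which encode subunits of the respiratory chain and ATP synthase. Its proteins are encoded in the nucleus, made in the cytoplasm and imported, and they assemble on rRNAs transcribed inside the organelle. The oocyte hands its mitochondria and a large store of mRNA to the embryo, and cleavage divides both between the blastomeres. The comparison of sisters asks whether they hold like levels of these mRNAs, and the comparison of embryos asks whether whole embryos differ. The cells were measured after the first cleavage, so uneven sharing at cleavage and changes after it cannot be told apart.

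The start regions of 5 genes are given because the results below turn on them: Mrpl34, Mrpl55 and Mrpl17, which differed between embryos, Mrpl42, with the widest gap between sisters, and Mrpl51, with the narrowest. Each runs 5′ to 3′ on the strand of the gene, from 250 bases before to 50 bases after the start that RefSeq gives on GRCm38.p6. Capitals mark matches, on either strand, to the letters GCGCANGCG (an NRF1 motif), CCGGAAG (an ETS motif, bound by GABPA) or AANATGGCG (a YY1 motif). NRF1 and GABPA are known as regulators of nuclear genes for mitochondria.
Mrpl34 (chr8:71464676-71464975, plus strand): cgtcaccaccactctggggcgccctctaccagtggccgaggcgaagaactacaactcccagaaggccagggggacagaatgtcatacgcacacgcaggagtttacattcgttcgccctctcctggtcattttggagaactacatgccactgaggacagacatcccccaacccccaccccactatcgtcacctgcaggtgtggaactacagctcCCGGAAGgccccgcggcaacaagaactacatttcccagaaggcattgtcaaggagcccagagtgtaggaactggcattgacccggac
Mrpl55 (chr11:59202236-59202535, plus strand): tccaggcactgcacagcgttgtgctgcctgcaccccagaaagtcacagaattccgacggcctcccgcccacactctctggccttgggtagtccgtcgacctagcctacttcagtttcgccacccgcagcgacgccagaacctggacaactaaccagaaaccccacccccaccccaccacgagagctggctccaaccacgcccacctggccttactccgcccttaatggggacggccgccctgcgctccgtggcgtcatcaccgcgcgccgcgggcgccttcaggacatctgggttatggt
Mrpl17 (chr7:105811038-105811337, minus strand): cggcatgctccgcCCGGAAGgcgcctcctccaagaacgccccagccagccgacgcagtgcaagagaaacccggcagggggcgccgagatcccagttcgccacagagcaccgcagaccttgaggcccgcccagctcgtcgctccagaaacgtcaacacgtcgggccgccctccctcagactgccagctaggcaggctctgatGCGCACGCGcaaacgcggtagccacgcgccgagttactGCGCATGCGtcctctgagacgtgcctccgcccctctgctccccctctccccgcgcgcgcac
Mrpl42 (chr10:95501900-95502199, minus strand): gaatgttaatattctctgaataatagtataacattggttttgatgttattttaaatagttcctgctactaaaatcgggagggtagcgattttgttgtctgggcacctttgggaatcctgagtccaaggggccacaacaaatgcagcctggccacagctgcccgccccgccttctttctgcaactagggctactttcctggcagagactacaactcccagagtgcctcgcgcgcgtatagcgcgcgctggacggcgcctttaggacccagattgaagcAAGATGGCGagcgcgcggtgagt
Mrpl51 (chr6:125191950-125192249, plus strand): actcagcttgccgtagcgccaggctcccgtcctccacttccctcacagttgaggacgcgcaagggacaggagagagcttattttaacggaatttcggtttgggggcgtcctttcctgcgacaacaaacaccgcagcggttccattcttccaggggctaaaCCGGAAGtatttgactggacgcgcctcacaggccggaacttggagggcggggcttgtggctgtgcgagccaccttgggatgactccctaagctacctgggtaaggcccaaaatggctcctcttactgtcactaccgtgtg

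Mrpl17 held 2 NRF1 matches and 1 ETS match, Mrpl34 and Mrpl51 held 1 ETS match each, Mrpl42 held 1 YY1 match after its start, and Mrpl55 held none of these letters. RefSeq windows were at hand for 65 of the 74 genes, as 71 windows in all. At least 1 of the 3 motifs stood in 40 of the 71 windows (56.3%), against 32.0% of the windows of genes above background and 15.4% of the windows of all genes. The ETS letters were in 33.8% of the mitoribosomal windows, against 18.1% for genes above background and 8.86% for all genes. The NRF1 letters were in 21.1%, against 13.7% and 6.25% in the same order. The YY1 letters were in 15.5%, against 5.36% and 2.38%. The letters TATAAA were in 7.04% of the mitoribosomal windows, near the 7.84% for genes above background, with 13.6% for all genes. The matches describe the sequence and were not tested for a link with the values.

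Values are given on the deposited log2 scale, where 1 unit is a 2-fold difference. A gene counted as above background when its mean over the 18 blastomeres exceeded 5.80, which is the 95th percentile of that mean for 1440 chemosensory receptor and Y-linked genes. A level describes 1 probe set, and levels of different probe sets were not set against each other. The mean over the blastomeres ran between 5.82 and 11.50 for the 72 genes above background, with a median of 7.28. All 28 small subunit genes and 44 of the 46 large subunit genes were above it. In every one of the 18 blastomeres the value was above 5.80 for 45 of the 72 (62.5%), against 9191 of the 12880 genes (71.4%).

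The 2 genes below background were Mrpl36 and Mrpl54, both of the large subunit. Mrpl36, the counterpart of a small zinc-binding protein of the bacterial ribosome, averaged 4.07 ± 0.65 (SD, n = 18), with values between 3.38 and 5.79, and was above the threshold in 0 blastomeres. Mrpl54 averaged 5.37 ± 0.40 (SD, n = 18), with values between 4.67 and 5.98, and passed the threshold in 1 blastomere. For both probe sets the signal could not be told from that of genes that these cells should lack.

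The labelled cell type was checked against its markers. All 9 oocyte and 2-cell markers were above background, among them Btg4, an adaptor of maternal mRNA decay, at 17.20 ± 0.10 (SD, n = 18). Of 7 cumulus and granulosa cell markers only Has2 was above the threshold, at 6.43 ± 0.44, and the blood marker Ptprc was below it. Among 7 Y-linked genes the probe set of Sry read 7.82 ± 0.22 in cells with no Y chromosome, so that a single probe set can exceed the threshold without its mRNA. Arrays differed in spread: the interquartile range of each gene's deviation from its median lay between 0.55 and 0.835, and it was widest in 5b (0.835) and 1a (0.815).

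Between embryos, 3 of the 72 genes differed by limma's moderated F test, in which variation among embryos is weighed against variation within pairs, with Benjamini-Hochberg adjustment over all 12880 genes (adjusted p under 0.05). This is 4.17%, against 5.82% of all genes tested. The 3 were Mrpl34, Mrpl55 and Mrpl17, all of the large subunit (3 of 44), and 0 of the 28 small subunit genes passed. At an unadjusted p under 0.05 the count was 17 of 72 (23.6%), against 22.6% of all genes. The share of mitoribosomal genes that differed was thus close to that of the array as a whole by either count. By subunit, the unadjusted count was 8 of 28 small subunit genes (28.6%) and 9 of 44 large subunit genes (20.5%), the reverse of the adjusted order. The difference between the subunits was not tested.

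Mrpl34, a small protein of the large subunit with a bacterial counterpart, was highest in embryo 7, at 7.52 in 7a and 8.14 in 7b. Embryo 4 followed with 6.48 and 6.88. The sisters read 5.62 and 6.35 in embryo 1, 6.11 and 5.87 in embryo 2, 6.16 and 6.06 in embryo 3, and 5.23 and 5.04 in embryo 5. They read 6.10 and 5.61 in embryo 8, 5.47 and 5.99 in embryo 9, and 5.27 and 5.24 in embryo 10. Both sisters of embryo 7 were above all 16 other blastomeres, and both sisters of embryo 4 were above the remaining 14. The embryo means spanned 2.70 log2 units, between 5.14 in embryo 5 and 7.83 in embryo 7 (adjusted p = 0.00655, limma). Sisters were 1.29-fold apart in the geometric mean, against 1.90-fold for non-sisters, and in 0 of 9 pairs were they more than 2-fold apart. Only 11 of the 18 values were above background, and both cells of embryo 5, the low end of the span, were below it. Without pair 7 the adjusted p was 0.08 (limma).

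Mrpl55, which has no bacterial counterpart, had the widest span between embryos of the 72 genes. It was low in both sisters of embryo 7 (5.27 and 5.22) and of embryo 4 (5.73 and 6.14). It was high in embryo 8 (10.60 and 9.32), embryo 3 (9.50 and 9.49) and embryo 1 (8.71 and 9.46). The sisters read 8.18 and 8.68 in embryo 10, 8.21 and 7.76 in embryo 2, 7.64 and 10.03 in embryo 5, and 7.09 and 5.48 in embryo 9. Embryo 7 was at the level of background genes in both cells, whereas both cells of embryo 8 were far above it. The embryo means ran between 5.25 in embryo 7 and 9.96 in embryo 8 (adjusted p = 0.0112, limma). Sisters were 1.77-fold apart, against 4.29-fold for non-sisters. The pairs were not alike: sisters of embryo 3 were 1.01-fold apart and those of embryo 5 were 5.24-fold apart. Without pair 7 the adjusted p was 0.0519.

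Mrpl17, the counterpart of a bacterial large subunit protein, was highest in embryo 3, with 7.20 in both sisters. It was lowest in embryo 10 (5.64 and 5.61), followed by embryo 9 (5.54 and 5.74). The other 12 values lay between 5.72 and 6.70, and no other blastomere reached the level of embryo 3. The embryo means spanned 1.58 log2 units, between 5.63 in embryo 10 and 7.20 in embryo 3 (adjusted p = 0.0451, limma). All 4 values of embryos 9 and 10 were below the background threshold, and 12 of the 18 values were above it. Sisters were 1.19-fold apart, against 1.52-fold for non-sisters. This call was the least stable: it was lost in 24 of 37 alternative settings, and without pair 3 the adjusted p was 0.248.

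**Figure D1:**
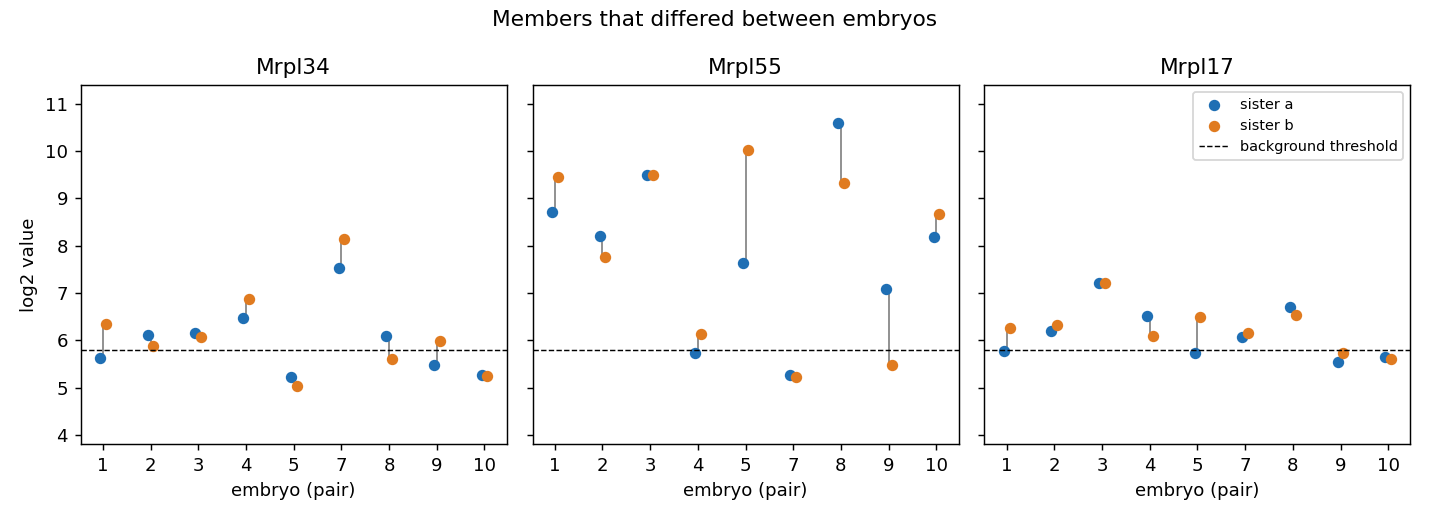
Log2 values of Mrpl34, Mrpl55 and Mrpl17 in sister a (blue) and sister b (orange) of each of the 9 embryos, with a grey line joining sisters and the background threshold of 5.80 dashed. Mrpl34 stood highest and Mrpl55 lowest in both cells of embryo 7, and Mrpl17 read 7.20 in both cells of embryo 3.

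The genes next in order did not pass the test. Mrpl48 had an adjusted p of 0.0665, Mrps27 of 0.0871 and Mrpl21 of 0.109 (limma). Mrps27, an RNA-binding small subunit protein, had embryo means between 5.85 in embryo 4 and 8.14 in embryo 8. Wide spans alone did not bring a call. Besides Mrpl55, the widest spans of embryo means belonged to Mrpl46 (7.35 in embryo 4 and 10.89 in embryo 1), Mrpl22 (6.62 in embryo 10 and 9.83 in embryo 3), Mrpl50 (5.62 in embryo 4 and 8.72 in embryo 5) and Mrpl42 (6.10 in embryo 9 and 9.16 in embryo 1). Their adjusted p values were 0.20, 0.139, 0.423 and 0.903. The low mean of Mrpl46 in embryo 4 came from 1 cell: the sisters read 8.99 and 5.71, a gap of at least 9.13-fold with the lower value, which was below background, raised to the threshold, while in embryo 1 they read 11.50 and 10.28. Mrpl22, whose bacterial counterpart lines the tunnel that the nascent chain leaves by, was low in both cells of embryo 10 (6.41 and 6.83), below all 16 other blastomeres.

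The medians of the 72 genes spread over a wider range between embryos than those of all genes. The median deviation from each gene's own mean was highest in embryo 5 (0.17) and lowest in embryo 9 (-0.23), against medians of all genes between -0.07 and 0.04. In embryo 9 only 17 of the 72 (23.6%) were above their own mean, against 42.5% of all genes, and in embryo 3 48 of the 72 (66.7%) were, against 52.0%. Cytoplasmic ribosomal proteins, 43 of which were above background, spread over a wider range still, with medians between -0.59 in embryo 10 and 0.78 in embryo 7. Of these 43 genes 9 (20.9%) differed between embryos, against 5.82% of all genes. In embryo 7, the highest for the cytoplasmic list, the mitoribosomal median was -0.03. A median over 72 or 43 genes varies more than a median over 12880, and ranges for lists of like size were not computed. The wider ranges thus cannot be read as a trait of these lists. The difference between the lists was not tested, and the arrays are normalized to each other, so these are shares of the signal and not amounts per cell.

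Of single blastomeres, 9b had the lowest mitoribosomal median (-0.31) and held the lowest of the 18 values for 9 of the 72 genes. The median was highest in 5b (0.24) and 3b (0.22). Blastomere 5b held the highest of the 18 values for 18 of the 72 genes, the most of any. Its array also had the widest spread of all 18, and the part of that spread in these highs was not tested. Highest and lowest values were not counted over all genes, so these counts cannot be read as a trait of the 72 genes. Without 5b and 1a the count of genes that differed between embryos was again 3, and the same 3 genes were called.

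**Figure D2:**
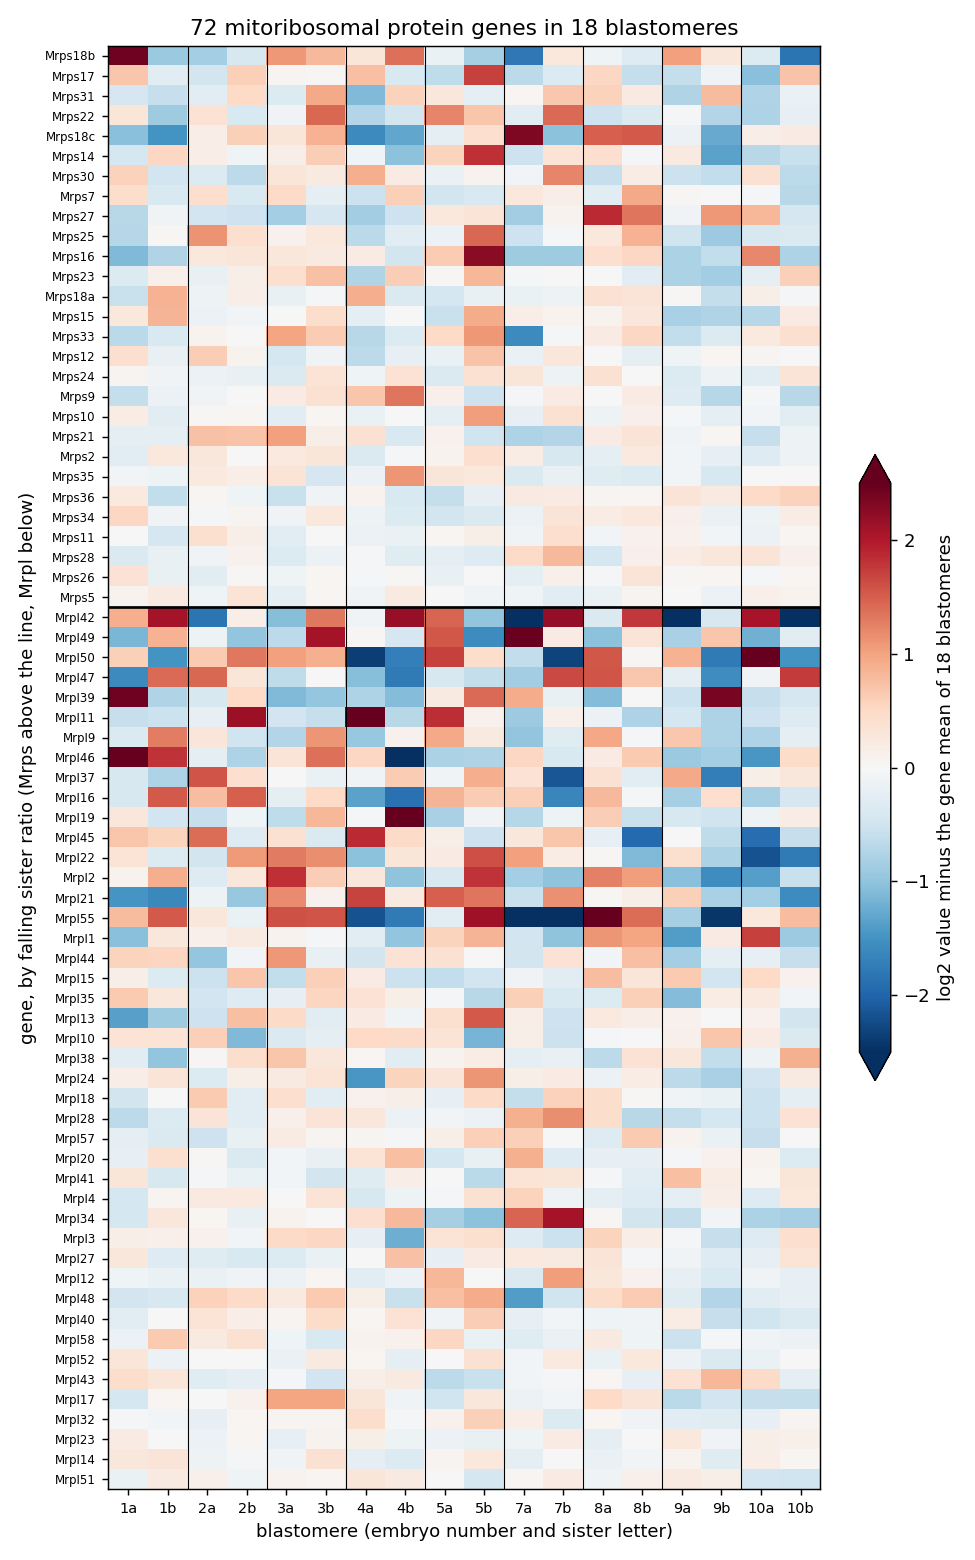
Log2 value of each of the 72 genes in each of the 18 blastomeres, minus the mean of that gene (red above, blue below), with the Mrps genes above the thick line and the Mrpl genes below it, each block in order of falling sister ratio, and thin lines between embryos. Rows at the top of each block often change colour between sisters, as Mrpl42 did in embryos 7 and 10, and rows at the foot are pale in all blastomeres.

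Sister ratios were formed as the higher over the lower value of a pair on the linear scale, as the geometric mean over the 9 pairs. A ratio of this form is never under 1 and grows with measurement noise. Values below the threshold of 5.80 enter it as measured, and a gap against such a value is given as a lower bound, with that value raised to the threshold. With all such values raised, the median ratio was 1.40 for the 72 genes and 1.43 for all genes. The median ratio of the 72 genes was 1.43 between sisters and 1.52 between non-sisters, over the 144 combinations of blastomeres of different embryos. For all genes the medians were 1.45 and 1.56. Sisters were closer than non-sisters for 48 of the 72 genes (66.7%), against 68.8% of all genes. The mean log2 distance between sisters was 87.5% of that between non-sisters, against 84.7% for all genes and 66.1% for the cytoplasmic ribosomal proteins. Mitoribosomal genes thus resembled the array as a whole in this measure. The 2 sets were not matched by level: 62.5% of the 72 genes were above background in every blastomere, against 71.4% of all genes. The difference from the cytoplasmic list, more of which was above background in every blastomere, was not tested. The median was 1.36 for the small subunit genes and 1.48 for the large subunit genes. A ratio above 2 was found for 2 of 28 (7.14%) and 9 of 44 (20.5%), against 13.0% of all genes. The difference between the subunits was not tested.

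**Figure D3:**
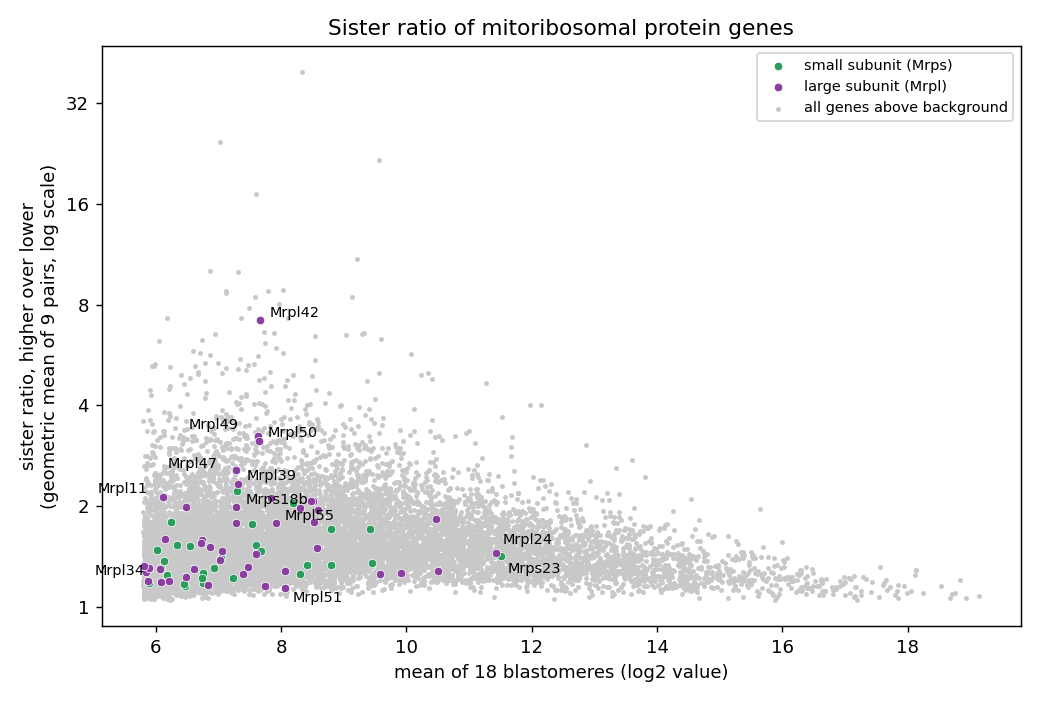
Sister ratio (geometric mean over 9 pairs of higher over lower value, log axis) against the mean log2 value over 18 blastomeres, for small subunit genes (green), large subunit genes (purple) and all 12880 genes above background (grey). Most mitoribosomal genes lie within the grey cloud near their median of 1.43, and Mrpl42 lies apart at 7.19.

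Mrpl42 had the widest ratio of the 72 genes. Its protein is found in the mitochondrial ribosomes of animals and has no bacterial counterpart. In embryo 7 it read 4.21 in 7a and 9.86 in 7b, and in embryo 10 it read 9.72 in 10a and 4.46 in 10b. The low cell of both pairs was below background, so the gaps were at least 16.7-fold and at least 15.1-fold. The sisters read 8.57 and 9.75 in embryo 1, 5.85 and 7.84 in embryo 2, 6.61 and 8.98 in embryo 3, and 7.57 and 9.84 in embryo 4. They read 9.12 and 6.69 in embryo 5, 7.31 and 9.43 in embryo 8, and 4.93 and 7.27 in embryo 9. The 4.93 in 9a was also below background, and 15 of the 18 values were above it. Sisters were more than 2-fold apart in 9 of 9 pairs, and more than 4-fold apart in 7 as measured and in 6 with the low values raised to the threshold. Sister b held the higher value in embryos 1, 2, 3, 4, 7, 8 and 9, and sister a in embryos 5 and 10.

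The geometric mean ratio of Mrpl42 was 7.19 between sisters, above the 4.48 between non-sisters, and 0.14% of the genes tested had a higher one. With the 3 low values raised to the threshold these ratios were 5.36 and 3.44. Among genes within 0.5 log2 units of its mean this share was 0.423%. Its sister SD was 4.51 times that of the limma trend for its intensity, the largest of the 72 genes, while the largest of any gene was 8.15 times. The test of sister spread against that trend called 0 of the 72 genes and 0.0% of all genes after adjustment. It had little reach: a single gene would have needed a sister SD 51.8 times the trend, and the smallest adjusted p of any gene was 0.918. Without adjustment 3 of the 72 genes, Mrpl42, Mrpl11 and Mrpl50, had sisters further apart than the trend at p under 0.05 (4.18% of all genes did). The gap in Mrpl42 is thus given as a description.

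The other wide ratios were those of Mrpl49 (3.23), Mrpl50 (3.13), Mrpl47 (2.56) and Mrpl39 (2.33). Mrpl49 was more than 2-fold apart in 6 of 9 pairs, the widest being embryo 5 with 9.18 in 5a and 6.06 in 5b, an 8.69-fold gap. In Mrpl49 sisters were also further apart than non-sisters (2.46). Mrpl50 read 10.32 in 10a and 6.16 in 10b, a 17.9-fold gap, while its sisters in embryo 3 were 1.10-fold apart (8.68 and 8.54). Both sisters of embryo 4 were low for Mrpl50 (5.30 and 5.93), so this gene varied within some embryos and between others. Mrpl47, the counterpart of a bacterial protein near the exit tunnel, read 5.69 (below background) in 1a and 8.70 in 1b, and Mrpl39 read 9.74 in 1a and 6.56 in 1b. Both genes were over 2-fold apart in 5 of the 9 pairs.

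Mrpl11, which forms the base of the stalk where translation factors bind, was high in single cells only. It read 8.85 in 4a against 5.42 in 4b, 8.26 in 2b against 5.92 in 2a, and 7.97 in 5a against 6.22 in 5b. The other 12 blastomeres lay between 5.21 and 6.25, and 7 of 18 values were above background. Its ratio of 2.13 became 1.82 with values below background raised to the threshold, and 3 pairs were then more than 2-fold apart, against all 9 for Mrpl42.

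At the other end, the narrowest ratios were those of Mrpl51 (1.14), Mrpl14 (1.15), Mrps5 (1.15), Mrpl23 (1.16) and Mrps26 (1.17). Mrpl51 averaged 8.07 ± 0.25 (SD, n = 18), and its sisters were between 1.01-fold (embryo 10) and 1.38-fold (embryo 5) apart. Mrpl14, the counterpart of a bacterial protein at the subunit interface, averaged 7.75 ± 0.22, and its widest pair was 1.39-fold apart. Mrpl23, at the exit of the peptide tunnel, averaged 6.83 ± 0.16, and Mrps5 averaged 6.46 ± 0.17. In none of these 5 genes did a pair reach 2-fold. For Mrps5, Mrpl23 and Mrps26 non-sisters (1.15, 1.14 and 1.13) were no further apart than sisters. Without adjustment 7 of the 72 genes had sisters closer than the trend at p under 0.05 (Mrpl51, Mrpl14, Mrpl23, Mrps5, Mrps11, Mrps2 and Mrps34), against 6.54% of all genes. After adjustment there were 0, and the smallest adjusted p of any gene was 0.155. A flat signal need not be evenly shared mRNA. The probe set of Sry averaged 7.82 ± 0.22 (SD, n = 18) in cells with no Y chromosome, with a sister ratio of 1.26. The means of Mrps5, Mrpl23 and Mrps26 (6.45) lay below a stricter background threshold of 7.15, and those of Mrpl51 and Mrpl14 above it. Whether these narrow ratios reflect mRNA or probe background was not tested.

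**Figure D4:**
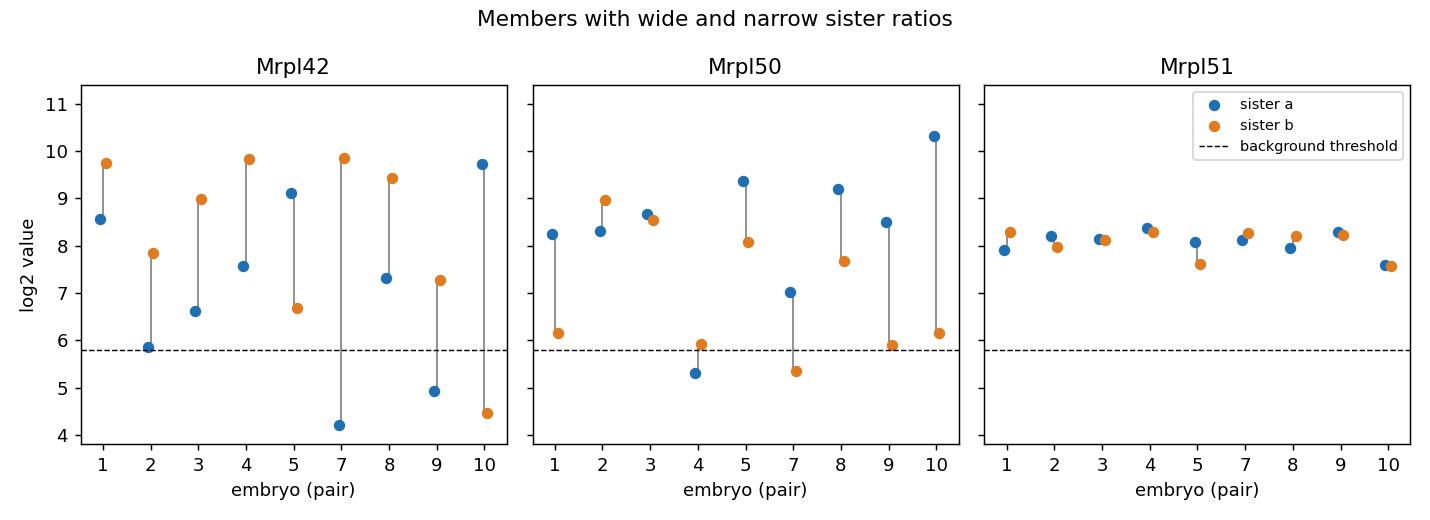
Log2 values of Mrpl42, Mrpl50 and Mrpl51 in sister a (blue) and sister b (orange) of each of the 9 embryos, with a grey line joining sisters and the background threshold of 5.80 dashed. Sisters differed in all pairs for Mrpl42 and in some pairs for Mrpl50, and lay within 1.38-fold of each other in all pairs for Mrpl51.

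Within a pair, 19.8% ± 4.47 (SD, n = 9 pairs) of the 72 genes were more than 2-fold apart, against 18.9% ± 3.66 of all genes. The share was lowest in pair 2 (13.9%) and highest in pairs 4 and 9 (25.0% each). In pair 1, whose share over all genes was the highest at 25.7%, 18.1% of the mitoribosomal genes were apart. More than 4-fold apart were 7 of the 72 in pair 7 (9.72%, against 4.68% of all genes) and 1 each in pairs 2 and 8 (1.39%, against 3.36% and 3.18% of all genes). Of the 72 genes, 26 (36.1%) were never more than 2-fold apart in any pair, against 34.3% of all genes, and 8 (11.1%) were so in 5 or more pairs, against 8.92%. Of those 8, 1 was a small subunit gene (3.57% of 28) and 7 were large subunit genes (15.9% of 44), a difference that was not tested.

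The genes furthest apart changed with the pair. Mrps18b led in pair 1 (10.3-fold), Mrpl11 in pair 2 (5.06-fold), and Mrpl49 in pairs 3 (6.63-fold) and 5 (8.69-fold). Mrpl39 led in pair 9 (7.57-fold), and Mrpl42 led in pairs 7 (at least 16.7-fold) and 8 (4.35-fold). In pairs 4 and 10 the lead, Mrpl11 and Mrpl42 as measured, depended on values below background. With these raised to the threshold, Mrpl11 was at least 8.28-fold apart in pair 4, where Mrpl19 was 9.92-fold apart. Mrpl42 was then at least 15.1-fold apart in pair 10, where Mrpl50 was 17.9-fold apart. The genes over 2-fold apart did not all favour one cell. In pair 5 they were higher in b for 12 of 17, against 1471 of 3021 over all genes. In pair 8 they were higher in a for 8 of 12, against 1145 of 2061. In pair 1 they were higher in a for 6 and in b for 7, against 1181 and 2131 over all genes. These differences from all genes were not tested.

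**Figure D5:**
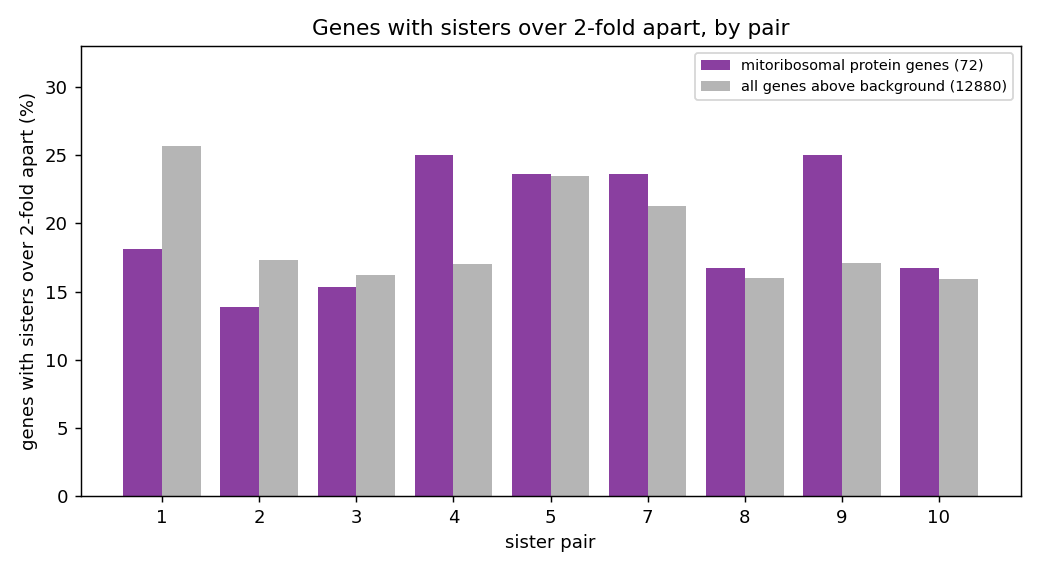
Percent of genes whose sisters were more than 2-fold apart in each of the 9 pairs, for the 72 mitoribosomal protein genes (purple) and all 12880 genes above background (grey). The mitoribosomal share ran between 13.9% in pair 2 and 25.0% in pairs 4 and 9.

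Mrps18a, Mrps18b and Mrps18c are paralogues of a bacterial small subunit protein. The protein of Mrps18a sits in the large subunit, and those of Mrps18b and Mrps18c sit in the small subunit. They did not move together. Mrps18a averaged 7.04 ± 0.42 (SD, n = 18), with a sister ratio of 1.39. Mrps18b averaged 7.29 ± 1.09, with a ratio of 2.21, and read 9.73 in 1a against 6.37 in 1b. Mrps18c averaged 8.80 ± 1.13, with a ratio of 1.70, against 2.54 for non-sisters. It was high in both cells of embryo 8 (10.30 and 10.33) and in 7a (11.14), but not in 7b (7.78), a 10.3-fold gap. None of the paralogues passed the test between embryos (adjusted p = 0.911, 0.52 and 0.208, limma).

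For 2 further genes the name and the place of the protein differ. Mrps30, whose protein sits in the large subunit, averaged 6.34 ± 0.55 (SD, n = 18), with a ratio of 1.53 and its widest pair at 2.45-fold in embryo 7 (6.26 and 7.55). Mrps36, whose protein is now known as a subunit of the alpha-ketoglutarate dehydrogenase complex, averaged 6.74 ± 0.35, with a ratio of 1.22 and no pair over 2-fold. Neither passed the test between embryos (adjusted p = 0.531 and 0.399, limma).

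The 72 genes varied together little more than any genes. Over the 18 blastomeres the median correlation between them was 0.05 over 2556 pairs of genes, against 0.004 over all pairs of genes, and r was over 0.5 for 4.42% of them, against 3.62%. The blastomeres share embryos and arrays, and these values describe the data only. The most alike were Mrpl24 and Mrps23 (r = 0.84), followed by Mrpl3 and Mrpl55 (0.80) and Mrpl48 and Mrps33 (0.78). Mrpl24 and Mrps23 were both low in 4a (9.96 and 10.75), with 11.97 and 12.12 in 4b, and both low in 9a (10.76 and 10.71) and 9b (10.61 and 10.63). Mrpl3, which lies near the peptidyl transferase centre in bacteria, followed Mrpl55 on a narrower scale, with embryo means between 9.80 in embryo 4 and 11.01 in embryo 3.

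The other genes of mitochondrial translation were read from lists drawn up with the study in view. Of the ribosomal proteins that carry other symbols and the insertase Oxa1l, 4 of 5 measured genes were above background, and 0 differed between embryos (adjusted p under 0.05, limma). The same count was 0 of 23 assembly and rRNA modification factors, 0 of 10 translation factors and 0 of 8 mitochondrial aminoacyl-tRNA synthetases above background, out of 28, 12 and 19 measured. Without adjustment 1, 4, 0 and 0 of these genes had p under 0.05. Of all genes tested 5.82% passed with adjustment, so lists of this size would hold few adjusted calls at the share of the array. The shares without adjustment were 25.0%, 17.4%, 0.0% and 0.0%, against 22.6% of all genes, and these differences were not tested. The widest sister ratio among them was that of Tfb1m, the dimethylase of the small subunit rRNA, at 5.26, against 4.81 for non-sisters. These were 4.14 and 3.94 with values below background raised to the threshold, and its widest pair, in embryo 1, was at least 15.2-fold apart. Mars2, the mitochondrial methionyl-tRNA synthetase, had a ratio of 4.64, or 2.62 with such values raised. Chchd1, a small subunit protein, had a ratio of 2.77, with its widest pair, in embryo 1, at least 10.1-fold apart. Dap3, a GTP-binding small subunit protein, averaged 9.28 ± 0.74 (SD, n = 18), with a ratio of 1.82.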

How the data were processed

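Single blastomeres were profiled on 18 Affymetrix Mouse Transcriptome Array 1.0 arrays after WT Pico amplification (11 cycles). Per the study's methods, the authors made the deposited log2 values with the Affymetrix Expression Console and the Transcriptome Analysis Console, where a robust multiarray average after signal space transformation corrected the background, normalized the arrays and summarized each probe set. No genome build for the probe sets was given in the sources used here. Between-array normalization hides differences in total RNA. No depth applies, and the number of arrays limits the precision.

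The table held 65956 probe sets. Symbols came from the platform annotation: 30638 had 1 symbol, 2176 several and 33142 none. For 354 genes with several probe sets the one with the highest mean was kept. The embryo was fitted as a factor in limma 3.58.1 (R 4.3.3), with an intensity trend in the empirical Bayes step, and tested by the moderated F test with Benjamini-Hochberg adjustment over 12880 genes, after the analysis of variance that the methods name. The residual variance between sisters (9 degrees of freedom) was set against the trended prior (3.29 degrees of freedom). Each embryo is 1 pair, so the p-values between embryos weigh variation among these 9 embryos against variation within pairs. The latter holds differences between sisters and between arrays alike. Scripts were tested on simulated data. Python 3.11.15, numpy 2.4.6, pandas 2.3.3 and matplotlib 3.10.9 were used.

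The genes and lists were chosen with earlier results of these data known. Named were genes passing a test, the 5 highest and 5 lowest sister ratios, the 5 widest spans of embryo means, genes below background, Mrps18a, Mrps18b, Mrps18c, Mrps30 and Mrps36. Genes named outside that rule (Mrpl11, Mrpl24, Mrps23, Mrpl3, Mrpl48, Mrps33, Mrps27, Mrpl21, Mrps11, Mrps2, Mrps34, Tfb1m, Mars2, Chchd1 and Dap3) were chosen after their values were seen. Alternatives were other thresholds, scalings and tests, the letter as a replicate block, and leaving out blastomeres or pairs. Start regions are RefSeq sequences of GRCm38.p6.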

Additional observations from a re-analysis of the deposited data

How the results depend on the processing

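The count of mitoribosomal genes that differed between embryos was 3, and stayed within 1.5 times of it in 34 of 38 alternatives. A count of 2 lies within that range, and the genes called were often not the same 3. Mrpl17 was lost in 24 of 37 alternatives, Mrpl34 in 1 of 37 and Mrpl55 in 2 of 38. The count was 1 above the 99th percentile threshold of 7.15 (Mrpl55, with 39 genes tested) and 1 with a plain analysis of variance (Mrpl34). It was also 1 without pair 7, where Mrps18c alone passed and none of the 3 did. Leaving out 1 blastomere gave between 2 and 5 (5 without 5a), and leaving out 1 pair between 1 and 3. With the letter as a replicate block the count was 2, since Mrpl17 had an adjusted p of 0.0614, and 572 of all genes passed, against 749. The letters are not known to pair blastomeres of different embryos, so this block rests on a label alone. Over all genes the count was 353 with a plain analysis of variance, 403 with no background threshold and 422 without pair 7.

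The adjusted p of Mrpl17 lay between 0.0245 and 0.248 over its alternatives, that of Mrpl34 between 0.00435 and 0.08, and that of Mrpl55 between 0.00305 and 0.0523. The test of sister spread gave 0 in all 36 alternatives, but with its little reach this repeated 0 is no sign of a stable result. The median sister ratio was 1.701 and the median level 8.069 at the 99th percentile threshold, which leaves 39 genes, and the ratio lay between 1.367 and 1.443 otherwise, being 1.367 without blastomeres 1a and 5b and 1.399 with values below background raised to the threshold, both alternatives chosen after seeing the data. Leaving out 1 pair gave ratios between 1.379 and 1.443 and levels between 7.214 and 7.37. With 1 array per blastomere, technical and biological differences between sisters cannot be told apart.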
